A study of Mus musculus with 4 samples.

Results

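Hedgehog signaling was examined in reconstituted ovaries (rOvaries) through 8 genes, Ihh, Ptch1, Smo, Sufu, Gli1, Gli2, Gli3 and Hhip, which were chosen by name from the 54021 gene symbols of the count table. All 8 were present and detected in every library. The rOvaries were grafts grown from aggregates of primordial germ cells and gonadal somatic cells of C57BL/6 fetuses carrying actin-GFP, which is driven by a promoter active in nearly all cells and marks donor cells. They grew under the kidney capsule of bilaterally ovariectomized G2 Terc-/- females on a C57BL/6 background, about 10 weeks old at transplantation, and were collected 1 month later. The 2 INK128 libraries (replicates 1 and 2) came from recipients given INK128, an inhibitor of the kinase mTOR, in drinking water, at 0.75 μM per g according to the labels, while the study's text states the dose in other units, per volume of water and per body weight and day. The 2 control libraries (replicates 1 and 3) came from recipients of the same genotype without INK128. The host kept its own kidney and blood cells next to the graft, and whether a library held 1 graft or a pool is not stated in the sources used here.

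In the ovary, granulosa cells around the oocyte secrete Indian hedgehog (Ihh) and desert hedgehog (Dhh), and the neighbouring mesenchyme that forms the theca receives them. Without ligand, the receptor Patched (Ptch1) holds the membrane protein Smoothened (Smo) inactive, and Suppressor of fused (Sufu) holds back the Gli transcription factors. When ligand binds Ptch1, Smo is released, and Gli2 and Gli3 switch on target genes, among which Gli1, Ptch1 and Hhip are the classical readouts. Hhip is a membrane-bound and secreted protein that captures ligand and so limits the signal.

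Counts per library ran from 19130209 to 23029089. They were converted to CPM, a gene's counts scaled so that libraries share 1 total, with TMM factors that adjust for library composition. A gene with 3 counts then has 0.124 to 0.164 CPM, a floor that covers counting error only. The controls resembled each other less than the INK128 libraries did. Of 17631 genes with a mean CPM above 1, 20.9% lay more than 2-fold apart between the controls and 2.25% between the INK128 libraries. Control replicate 1 held 1021 counts of 4 Y-linked genes (0 to 2 in the other libraries), although the study's methods describe female gonads and female recipients. It also had 145 CPM of Sox9 and 29.9 CPM of Dmrt1, which are Sertoli cell genes, against at most 6.31 and 0.14 CPM elsewhere. The 6 Sertoli cell markers summed to 1020 CPM there and to 100 to 201 CPM elsewhere, and their median log2 fold change was -1.88, but Rhox8 of that list, named after its values were seen, was lowest there (40.4 CPM against 52.0 to 115 CPM). Control replicate 3 had little oocyte RNA, with 7.0 CPM of Gdf9 and 3.27 CPM of Zp3 against 251 to 463 and 127 to 174 CPM in the other libraries. The values of the 8 members, and of the other pathway genes where a call or the size depended on it, are therefore also given without each control. In edgeR fits without control replicate 1, 21.6% of all tested genes were called higher with INK128 and 23.4% lower, and without control replicate 3 these shares were 19.4% and 21.5%. All such fits take the spread from the 2 INK128 libraries alone, which were the more alike, and assume that the lone control varies like them, so their p-values are not comparable with those of the fit to 4 libraries. The ratios and marker levels are given per library only. The labels do not say which animals the libraries came from, so p-values measure the spread between these libraries alone.

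In the comparison of INK128 with control rOvaries, the clearest differences among the 8 genes were in Gli1 and Hhip, both higher in each INK128 library than in each control, by 2.90-fold and 3.28-fold. Ihh, Smo, Sufu and Gli3 lay within 1.5-fold on average, and so did Ptch1 and Gli2. With edgeR's quasi-likelihood test and Benjamini-Hochberg adjustment over 17631 genes, 0 of the 8 members passed an adjusted p of 0.05 with a fold change above 1.5, but 0% of all tested genes did either, the smallest adjusted p was 0.0555, and 5797 genes had an unadjusted p below 0.05. An unadjusted p below 0.05 with the same fold limit was reached upward by 2 of the 8, Gli1 and Hhip, beside 14.1% of all tested genes upward and 17% downward. DESeq2 on the same genes called the same 2 members higher and none lower, beside 10.2% of all genes called higher and 13.6% lower, and limma voom called 0 genes.

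**Figure D1:**
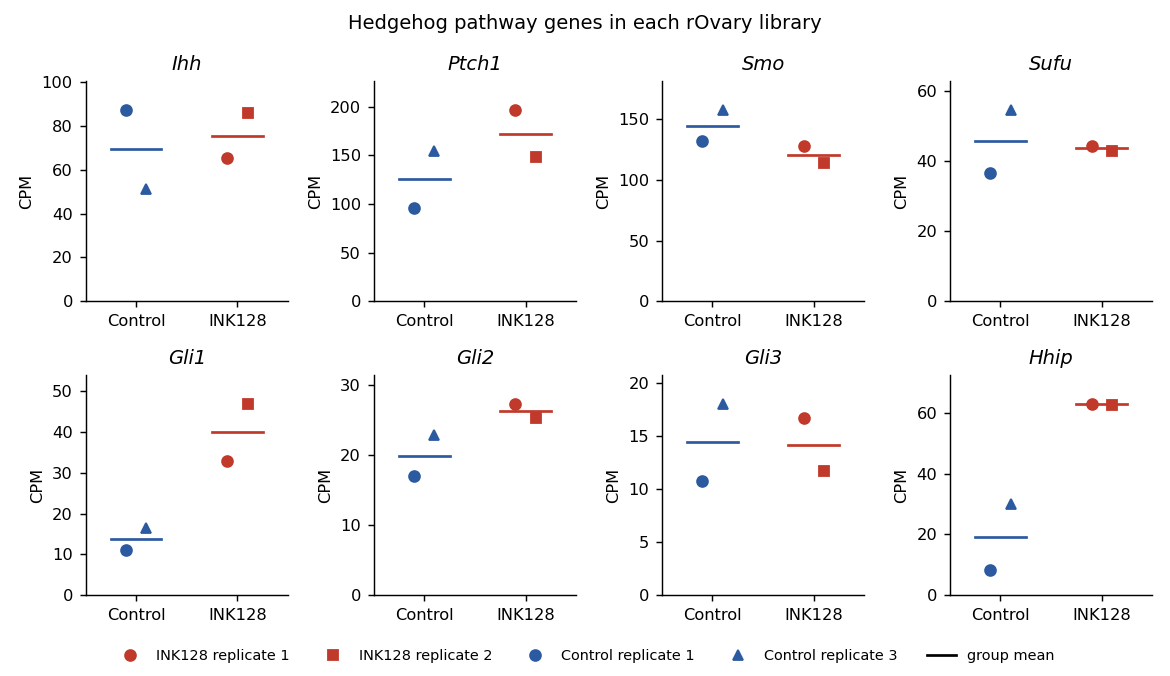
CPM (vertical axis, from 0) of each hedgehog gene in the 2 control libraries (blue) and the 2 INK128 libraries (red), with horizontal lines at group means. Gli1, Gli2 and Hhip were higher in both INK128 libraries than in both controls, Smo was lower in both, and the groups overlapped for Ihh, Ptch1, Sufu and Gli3.

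The promoter windows of Hhip and Ptch1 are shown because both genes are known targets of the pathway and their groups were separate for Hhip and overlapping for Ptch1. Windows of 300 bases (250 before the start and 50 from it on) were read from a RefSeq table of build GRCm38.p6 for 7 of the 8 members, and that of Gli1 was not analysed here. Hhip lies on the minus strand at chr8:80057959-80058258 and Ptch1 on the minus strand at chr13:63565686-63565985, which is inside the gene's GENCODE span given with its values, at a start other than the outermost one. Capitals mark GC boxes (GGGCGG or CCGCCC) and, in Hhip, the cyclic AMP response element TGACGTCA.
Hhip: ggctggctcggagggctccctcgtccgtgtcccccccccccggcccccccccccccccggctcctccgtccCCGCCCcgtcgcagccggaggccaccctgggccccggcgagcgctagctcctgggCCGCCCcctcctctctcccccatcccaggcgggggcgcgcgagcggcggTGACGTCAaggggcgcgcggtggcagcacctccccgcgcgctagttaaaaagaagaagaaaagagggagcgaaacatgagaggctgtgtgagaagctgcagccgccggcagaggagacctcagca
Ptch1: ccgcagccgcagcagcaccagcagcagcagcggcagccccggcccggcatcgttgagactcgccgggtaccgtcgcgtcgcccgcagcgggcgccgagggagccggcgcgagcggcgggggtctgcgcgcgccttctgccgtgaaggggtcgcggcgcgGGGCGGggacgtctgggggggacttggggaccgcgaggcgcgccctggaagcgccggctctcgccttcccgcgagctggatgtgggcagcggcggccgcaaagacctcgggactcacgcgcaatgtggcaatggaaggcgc

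The motifs were searched on both strands, and they do not overlap each other in either window. The response element begins 75 bases before the start of Hhip and was found in no other member's window, while 1.79% of 32851 mouse windows hold it. GC boxes stood in 35.7% of all windows and in those of Ihh, Ptch1, Sufu, Gli2, Gli3 and Hhip. The letters bound by Gli proteins, GACCACCCA or its complement TGGGTGGTC, were in none of the 7 windows, even with 1 mismatch allowed. Over all windows, 0.253% hold them exactly and 6.74% with up to 1 mismatch. These are letter matches in a short window, with no measurement of binding.

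The ligand Ihh, on chromosome 1 from 74945315 to 74951672 (GENCODE M21 on GRCm38, the build of the files), had 65.1 and 85.6 CPM in the INK128 libraries, 87.3 CPM in control replicate 1 but 51.4 CPM in replicate 3. The INK128 libraries thus lay between the controls. The difference was 0.12 ± 0.32 on the log2 scale (SE, with a 95% interval of -0.72 to 0.96, adjusted p = 0.81, edgeR). The sign turned with the scaling, to -0.06 with library totals, while the median of all genes moved from -0.04 to -0.21. It was 0.55 without control replicate 1 and -0.21 without control replicate 3.

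Ptch1, the receptor and a target, on chromosome 13 from 63508328 to 63573598, had 197 and 148 CPM in the INK128 libraries against 95.8 CPM in control replicate 1 and 155 CPM in replicate 3. Control replicate 3 lay between the INK128 libraries, and control replicate 1 was the lowest of the 4. Its log2 fold change reached 0.46 ± 0.31 (SE, interval -0.34 to 1.26, adjusted p = 0.338, edgeR). It was 0.16 without control replicate 1 and 0.85 without control replicate 3, where it passed the thresholds (adjusted p = 0.00528, edgeR). Ptch1 had the longest exon sequence of the members, 14185 bases, and with offsets for exon length in each library its value was 1.02 (adjusted p = 0.107, edgeR).

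Smo, which carries the signal across the membrane, lies on chromosome 6 from 29735503 to 29761365. Per kilobase of exon it had 22.7 and 20.3 CPM in the INK128 libraries and 23.5 and 28.0 CPM in the controls, from 2332 to 3803 counts. It was the 1 member lower in both INK128 libraries than in both controls, by a small margin, and 33% of all tested genes showed that order. On the log2 scale the difference was -0.26 ± 0.19 (SE; 95% interval -0.74 to 0.23, adjusted p = 0.373 in edgeR). It was -0.38 without control replicate 1 and -0.13 without control replicate 3.

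Sufu, the inhibitor that binds Gli proteins in the cytoplasm, lies on chromosome 19 from 46396896 to 46488804 and had 44.4 and 42.9 CPM with INK128 and 36.6 and 54.6 CPM in controls. The INK128 libraries again lay between the controls, and the log2 fold change was -0.06 (interval -0.73 to 0.61, adjusted p = 0.879, edgeR). The sign was positive, 0.24, with the length offsets. The value was -0.32 when control replicate 1 was left out and 0.26 when control replicate 3 was.

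Gli1, a transcriptional activator that is itself transcribed in response to the signal, is on chromosome 10 from 127329882 to 127341974. It had 33.0 and 47.0 CPM in the INK128 libraries and 11.1 and 16.5 CPM in the controls. The lower INK128 library was above the higher control, and the means were 40.0 ± 9.84 CPM (SD, n = 2) and 13.8 ± 3.83 CPM (SD, n = 2). This gave a log2 fold change of 1.54 ± 0.33 (SE, interval 0.68 to 2.39, unadjusted p = 0.00603, adjusted p = 0.0644, edgeR). DESeq2 gave 1.53 with an adjusted p of 0.00157. Without control replicate 1 it was 1.28 (adjusted p = 0.00108, edgeR) and without control replicate 3 it was 1.85 (adjusted p = 8.4e-05, edgeR), each time past the thresholds. Without either INK128 library the value was 1.76 or 1.25, with adjusted p-values of 0.431 and 0.48 in edgeR. Exons of Gli1 share 265 bases with the antisense gene Gm47200 (40 to 109 counts) and 62 bases with Arhgap9 (87 to 194 counts), and no source used here says that strand was counted, so reads of these stretches are uncertain. Gli1 itself had 255 to 1004 counts.

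The other Gli genes differed less. Gli2, the main activator, on chromosome 1 from 118834132 to 119053619, had 27.4 and 25.4 CPM with INK128 and 17.0 and 22.9 CPM in controls. Its groups were separate but close, 0.41 ± 0.26 apart on the log2 scale (SE, adjusted p = 0.318, edgeR), and 0.21 or 0.64 apart without control replicate 1 or 3. Gli3, which acts mostly as a repressor when the signal is off, on chromosome 13 from 15463235 to 15730026, had 16.7 and 11.7 CPM with INK128 and 10.8 and 18.1 CPM in controls. Its groups overlapped fully (log2 fold change -0.03, interval -1.04 to 0.98, adjusted p = 0.961, edgeR), and the sign was positive, 0.37, with the length offsets. Leaving out control replicate 1 or 3 gave -0.36 or 0.39. Gli3 shares 188 exon bases with the antisense gene Gm6556, which had 12 to 44 counts.

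Hhip, on chromosome 8 from 79965851 to 80058006, had 63.2 and 62.6 CPM in the INK128 libraries, only 8.21 CPM in control replicate 1, and 30.2 CPM in replicate 3. The INK128 libraries were nearly equal and the controls were far apart. The fold change was 1.71 ± 0.63 on the log2 scale (SE, interval 0.07 to 3.35, unadjusted p = 0.0437, adjusted p = 0.142, edgeR), and DESeq2 gave 1.70 with an adjusted p of 0.0266. Without control replicate 1 it was 1.06 (adjusted p = 0.000554, edgeR), and without control replicate 3 it was 2.94 (adjusted p = 2.18e-07, edgeR). With either INK128 library left out it was 1.70 or 1.71, with adjusted p-values of 0.465 and 0.516 in edgeR. When edgeR was run on all 31483 genes with at least 1 count, Gli1 (adjusted p = 0.0128) and Hhip (adjusted p = 0.0303) were the 2 members called, beside 3.66% of those genes called higher and 6.2% lower. Exons of Hhip share 175 bases with Gm27820 on the opposite strand, which had 8 to 33 counts.

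Among the 8 members, 3 (Gli1, Gli2 and Hhip) were higher in both INK128 libraries and 1 (Smo) was lower in both, whereas 33.1% of all tested genes were higher in both and 33% lower in both. Their median log2 fold change was 0.26 against -0.04 for all tested genes. A separation of the groups by itself was thus common in these libraries, and Gli1 and Hhip stood out from the other members by size.

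**Figure D2:**
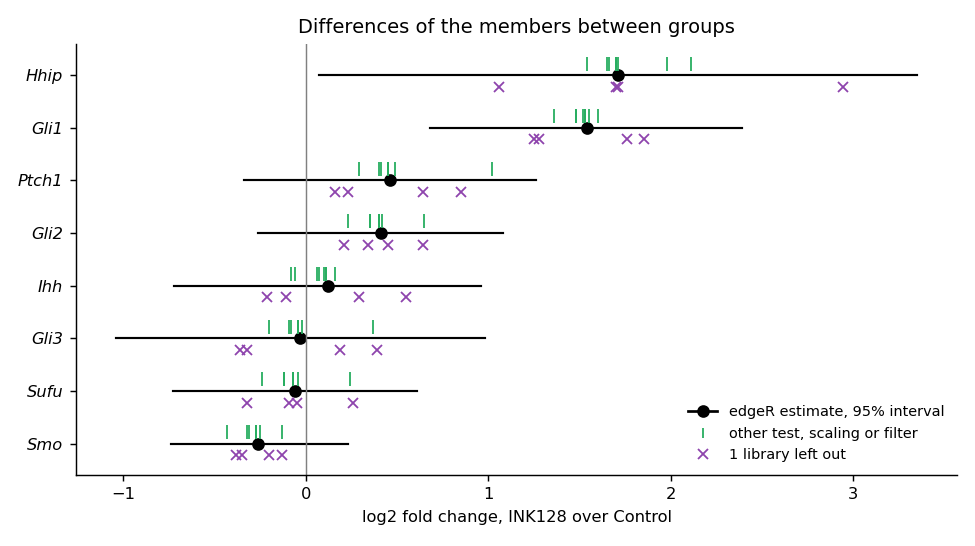
Log2 fold change of INK128 over control (horizontal axis) for each member, as the edgeR estimate with its 95% interval (black), under other tests, scalings and filters (green bars) and with 1 library left out (purple crosses). The values of Gli1, from 1.25 to 1.85, and of Hhip, from 1.06 to 2.94, stayed above 0 throughout, while those of Ihh, Sufu and Gli3 fell on both sides of 0.

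Levels of different genes were compared as CPM per kilobase of exon. Among the 8 members, over the 4 libraries, Ihh (mean 23.7 CPM per kilobase) and Smo (23.6) were the highest and overlapped in range, from 16.9 to 28.7 and from 20.3 to 28.0. Of the members, Ptch1 followed (10.5, range 6.75 to 13.9), below every value of Smo. Sufu (5.80), Gli1 (5.38), Hhip (4.52) and Gli2 (3.37) overlapped from neighbour to neighbour, and Ptch1 and Sufu overlapped as well. Gli3 had the lowest mean (1.49, range 1.13 to 1.89), below Gli2 in every library, although Hhip was lower still in control replicate 1. The place of Gli1 and Hhip in this order differed between the groups. In the INK128 libraries, Gli1 had 6.61 and 9.40 and Hhip 6.97 and 6.89 CPM per kilobase, above Gli2 (4.0 and 3.7) and Sufu (5.77 and 5.58). In the controls, Gli1 had 2.22 and 3.3 and Hhip 0.904 and 3.32 CPM per kilobase, below Sufu (4.76 and 7.10) and at or below Gli2 (2.47 and 3.33).

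Ratios of read counts within a library do not depend on how libraries are scaled to each other. They were chosen after the values were seen and are given without a test. Gli1 had 0.749 and 1.27 counts per count of Gli2 and Gli3 together in the INK128 libraries, and 0.398 and 0.402 in the controls. The controls, far apart in other respects, were nearly equal in this ratio. Hhip had 0.322 and 0.423 counts per count of Ptch1 with INK128 against 0.0857 and 0.195 in controls, and Ptch1 had 1.54 and 1.29 counts per count of Smo against 0.726 and 0.981. In these 3 ratios, both INK128 libraries were above both controls. Measured against Acta2, the actin of smooth muscle, the order was the opposite, with 0.0127 and 0.0194 counts of Gli1 per count of Acta2 with INK128 and 0.0367 and 0.0274 in controls. Against Nr2f2, a nuclear receptor of ovarian mesenchyme, the groups overlapped (0.129 and 0.195 against 0.100 and 0.137).

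**Figure D3:**
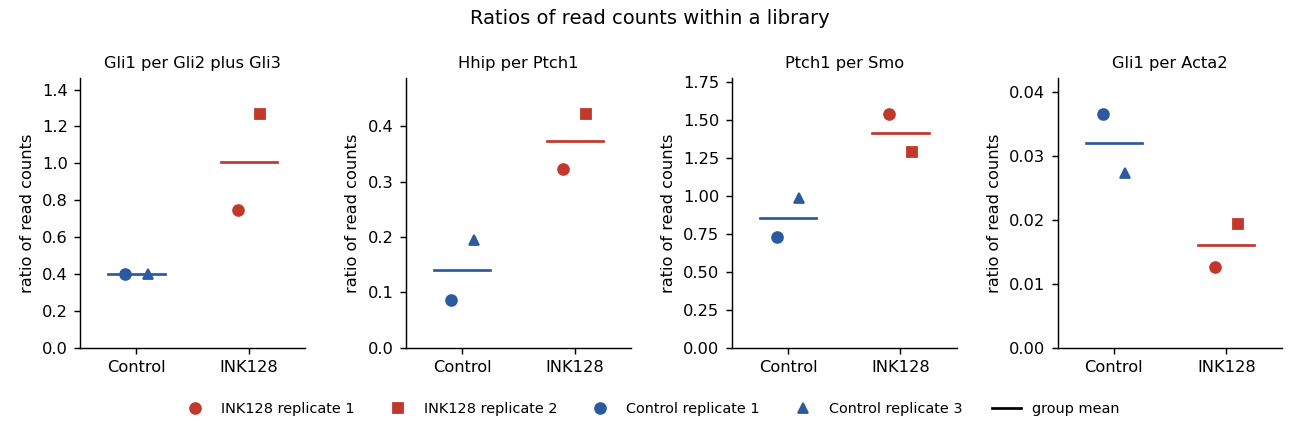
Ratio of read counts of the named genes within each library (vertical axes, from 0), with controls in blue, INK128 in red and lines at group means. The INK128 libraries were above the controls for Gli1 per Gli2 plus Gli3, for Hhip per Ptch1 and for Ptch1 per Smo, and below them for Gli1 per Acta2.

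The wider pathway was read from a written list of 49 genes, of which 45 passed the filter on low counts. Their median log2 fold change was -0.23, against -0.04 for all tested genes, with 15 values above 0 and 30 below. In both INK128 libraries 4 of them (Hhat, Kif7, Evc2 and Nr2f2) were higher than in both controls and 17 were lower, orders that 33.1% and 33% of all tested genes showed. With edgeR 0 of the 45 passed the thresholds. DESeq2 called 1 higher (Nr2f2) and 3 lower (Ccnd1, Cdon and Fbxw11), shares to be read against 10.2% and 13.6% of all tested genes. Without control replicate 1, edgeR called 3 of the 45 higher and 9 lower, beside 21.6% and 23.4% of all tested genes. Without control replicate 3 it called 4 higher and 13 lower, beside 19.4% and 21.5%.

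Among the ligands of this list, Shh had 2 to 12 counts and was not tested. Dhh had 28.0 and 40.0 CPM in the INK128 libraries, as much as 86.9 CPM in control replicate 1, but 20.5 CPM in replicate 3, and the groups overlapped (log2 fold change -0.66, adjusted p = 0.534, edgeR). The direction depended on the control used. Without control replicate 1 the log2 fold change was 0.73 (adjusted p = 0.0299, edgeR), and without control replicate 3 it was -1.35 (adjusted p = 0.00016, edgeR). Dhh is also the hedgehog of Sertoli cells, and control replicate 1 was the library with Y-linked and Sertoli cell transcripts, whose part in the value of Dhh was not tested. Dhh stood at 0.43 and 0.467 counts per count of Ihh with INK128, 0.995 in control replicate 1 and 0.399 in control replicate 3.

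Scube3, a secreted protein of the family that helps release lipid-modified ligand, was also more than 2-fold higher in control replicate 1 than in any other library. It had 38.8 CPM there and 6.46 to 7.62 CPM elsewhere (log2 fold change -1.70, adjusted p = 0.219, edgeR). The value was -0.01 without that library and -2.46 without control replicate 3 (adjusted p = 3.33e-06, edgeR). Scube2 of the same family had 12.5 and 13.2 CPM with INK128 against 15.4 and 28.5 CPM (log2 fold change -0.77, adjusted p = 0.221, edgeR). Its value was -1.15 without control replicate 1, where it was called (adjusted p = 0.00186, edgeR), and -0.26 without control replicate 3. Hhat, the enzyme that attaches palmitate to the ligand, was higher in both INK128 libraries, with 14.4 and 14.7 CPM against 5.78 and 10.2 CPM (log2 fold change 0.86, adjusted p = 0.189, edgeR). Hhat stood at 0.51 without control replicate 1 and at 1.33, a call, without control replicate 3 (adjusted p = 0.003, edgeR).

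The co-receptors that present ligand to Ptch1 had unequal values. Cdon had 40.4 and 33.3 CPM with INK128 and 74.1 and 59.5 CPM in controls, lower in both INK128 libraries, a difference of -0.86 ± 0.22 on the log2 scale (SE, adjusted p = 0.0794 in edgeR and 0.0199 in DESeq2), and it was called without control replicate 1 (-0.69) and without control replicate 3 (-1.01). Boc, of the same family, overlapped between the groups (57.6 and 62.7 against 47.5 and 69.8 CPM, log2 fold change 0.04), with -0.22 and 0.34 in the same 2 fits. Gas1 also overlapped, at 138 and 106 against 214 and 136 CPM (log2 fold change -0.52, adjusted p = 0.276, edgeR). Its value was -0.15 without control replicate 1 and -0.81, a call, without control replicate 3 (adjusted p = 0.0043, edgeR).

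The 16 genes of the primary cilium, the organelle where Smo acts, had a median log2 fold change of -0.11, with 2 higher and 5 lower in both INK128 libraries, where 33.1% and 33% of all tested genes had these orders. The 12 genes that process Gli proteins had a median of -0.23, with 5 lower in both, among them Fbxw11, a subunit of an ubiquitin ligase (68.5 and 58.7 against 97.0 and 122 CPM, log2 fold change -0.78, adjusted p = 0.0824 in edgeR and 0.0242 in DESeq2). Fbxw11 was called without control replicate 1 (-0.94) and without control replicate 3 (-0.61). The 6 tested targets that are not among the 8 members had a median of -0.36, with 1 higher and 3 lower in both. Besides the genes that follow, Ccnd2, cyclin D2, named after its values were seen, was lower in both, with 211 and 223 CPM against 302 and 318 CPM (log2 fold change -0.51, adjusted p = 0.119, edgeR). Nr2f2 had 255 and 241 CPM with INK128 and 111 and 120 CPM in controls, a log2 fold change of 1.11 (adjusted p = 0.0555 in edgeR and 1.91e-05 in DESeq2). Ccnd1, cyclin D1, had 38 and 46.4 CPM with INK128 and 101 and 110 CPM in controls, a log2 fold change of -1.32 (adjusted p = 0.0555 in edgeR and 1.56e-05 in DESeq2). Both were called when either control was left out, Nr2f2 at 1.05 and 1.17 and Ccnd1 at -1.38 and -1.26. Foxf1, a forkhead factor of mesenchyme, was at 0.657 and 0.655 CPM against 1.52 and 3.69 CPM (log2 fold change -1.98, adjusted p = 0.135, edgeR). It was -1.2 without control replicate 3 and -2.48, a call, without control replicate 1 (adjusted p = 0.00203, edgeR).

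**Figure D4:**
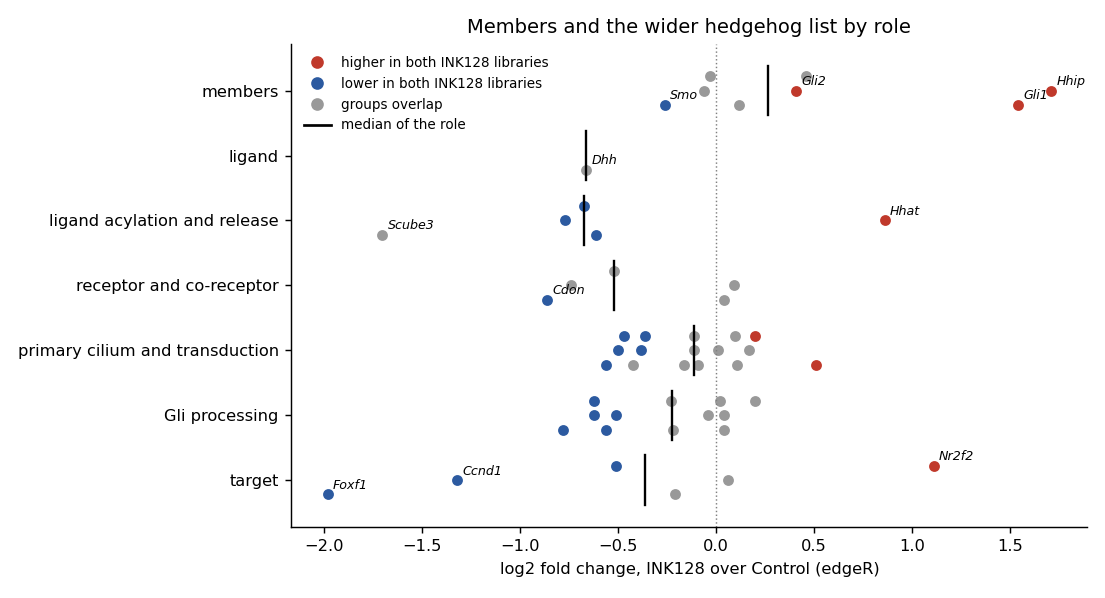
Log2 fold change of INK128 over control (horizontal axis) for the 8 members and the 45 tested genes of the wider list, grouped by role (vertical axis), with a black bar at each median. Red genes were higher and blue genes lower in both INK128 libraries than in both controls, grey ones overlapped, and all of the wider list except Foxf1 (-1.98) and Scube3 (-1.70) lay from Ccnd1 (-1.32) to Nr2f2 (1.11).

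Markers of the cell types in and around the graft differed between the same libraries. All 6 smooth muscle markers were higher in both INK128 libraries, with summed levels of 5170 and 5200 CPM against 699 and 1490 CPM. Their median log2 fold change was 2.28, with 6 DESeq2 calls. Of all tested genes, 33.1% were higher in both and DESeq2 called 10.2% higher. These markers were listed for the theca, but whether their RNA came from the theca or from other smooth muscle was not tested. Acta2 had 2610 and 2430 CPM against 302 and 601 CPM, and Myh11 556 and 642 CPM against 130 and 290 CPM. Of the 18 kidney markers, 16 were lower in both INK128 libraries (33% of all tested genes were), with summed levels of 114 and 223 CPM against 789 and 1730 CPM. Slc34a1 had 7.18 and 22.7 CPM against 236 and 501 CPM, Umod 0.384 and 0.514 CPM against 5.95 and 53.7 CPM, and Aqp2 7.89 and 10.8 CPM against 29.3 and 15.1 CPM. Nphs1, a podocyte gene named after its values were seen, was higher in both INK128 libraries, with 7.56 and 8.93 CPM against 3.61 and 6.25 CPM. Leukocyte markers summed to 91.1 and 82.5 CPM against 156 and 240 CPM, and Ptprc had 8.0 and 7.01 CPM against 9.25 and 46.0 CPM. The part of these cell types in the values of Gli1 and Hhip was not tested, and in bulk tissue fewer cells of a type and less RNA per cell cannot be told apart.

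Markers listed for granulosa cells and for steroid-forming theca cells were detected in every library. Marker RNA alone does not tell which cells it came from. Granulosa markers summed to 6620 and 8530 CPM with INK128 and to 3120 and 6740 CPM in controls, sums in which Inha, an inhibin subunit named after its values were seen, had the largest share (4150 and 5990 against 1650 and 2810 CPM). The 10 genes of the list had a median log2 fold change of 0.09, with 5 values above 0 and 5 below. Inha was the list's 1 DESeq2 call (log2 fold change 1.18, adjusted p = 0.0104), beside 10.2% of all tested genes called higher. Foxl2, the defining transcription factor of granulosa cells, had 379 and 374 CPM against 143 and 271 CPM. Fshr, the receptor for follicle-stimulating hormone, overlapped between the groups (22.6 and 31.7 against 25.1 and 20.5 CPM). Amh overlapped as well, with 134 and 81.5 CPM against 426 and 5.01 CPM. Its highest level was in control replicate 1, the library with Y-linked and Sertoli cell transcripts. The part of Sertoli cells in the values of the granulosa list was not tested. The summed steroidogenic markers listed for the theca divided the controls rather than the groups. They came to 760 CPM in control replicate 1 but to 10400 CPM in replicate 3, with 3860 and 5070 CPM in the INK128 libraries between them. The 6 genes of that list had a median log2 fold change of -0.30, with 3 values above 0 and 3 below. Cyp17a1, the androgen-forming enzyme of theca cells, was the 1 gene of the list higher in both INK128 libraries, as 33.1% of all tested genes were. It had 362 and 429 against 16.6 and 162 CPM (log2 fold change 2.15, adjusted p = 0.217, edgeR). The other 5 overlapped, among them Insl3, Lhcgr and Star. Insl3 ran against the sum, with 44.6 CPM in control replicate 1, 11.8 CPM in replicate 3, and 25.9 and 41.2 CPM with INK128. Each remaining gene of the list was higher in control replicate 3 than in replicate 1. Star, a cholesterol carrier named after its values were seen, was the list's 1 DESeq2 call (log2 fold change -1.64, adjusted p = 0.0428). DESeq2 called 13.6% of all tested genes lower. Star had 137 and 171 CPM with INK128 and 171 and 781 CPM in controls, so that control replicate 1 equalled an INK128 library. Oocyte markers summed to 1210 and 886 CPM with INK128, 822 CPM in control replicate 1 but 26.6 CPM in replicate 3. In that library, with the least oocyte RNA, Ihh and Dhh were detected at 51.4 and 20.5 CPM, for each the lowest value of the 4 libraries.

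**Figure D5:**
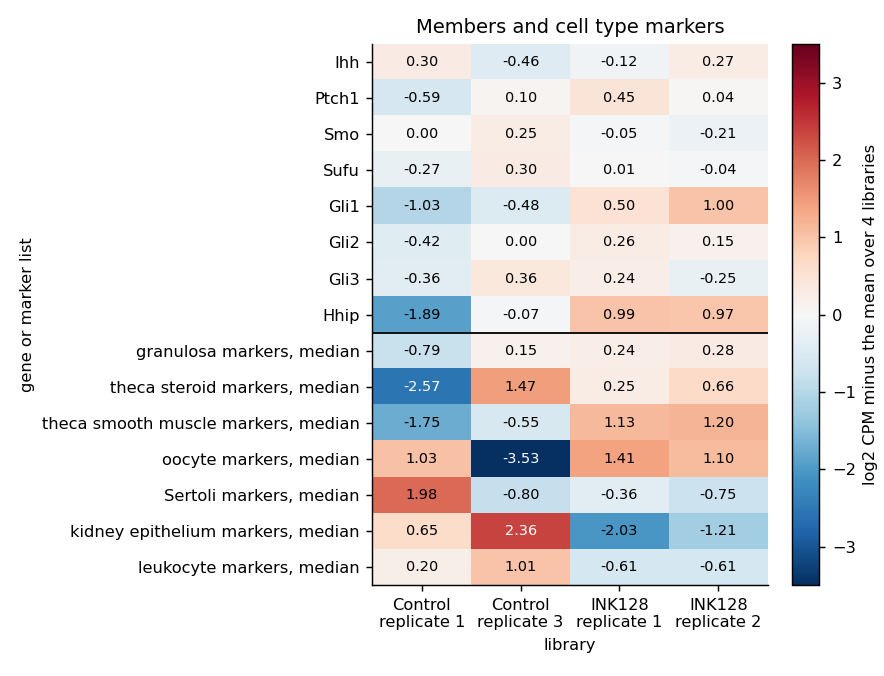
Log2 CPM (pseudocount 0.5) minus the mean over the 4 libraries for each member and for the median gene of each marker list (rows), by library (columns), with red above and blue below that mean. Hhip and the smooth muscle list were high in both INK128 libraries (0.99 and 0.97, and 1.13 and 1.2) and lowest in control replicate 1 (-1.89 and -1.75).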

How the data were processed

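RNA-seq of 4 rOvary libraries was analysed, 2 per group. After trimming (Trimmomatic) and alignment to mm10 (Hisat2), the authors used featureCounts, and they deposited its unnormalized counts for each gene symbol. The study's methods name RefGene as the gene annotation, which was not checked against the count table. Tool versions and the strand setting are not given in the sources used here. Groups came from the sample labels.

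From the counts, CPM with TMM factors were computed (edgeR 4.0.16, R 4.3.3). Genes with a mean CPM above 1 were tested with edgeR's quasi-likelihood test and Benjamini-Hochberg adjustment, since the filter of CPM above 10 named in the study could leave out hedgehog genes. A call required more than a 1.5-fold difference and an adjusted p under 0.05, the study's limits. Alternatives were the study's tool DESeq2 (1.42.0), limma voom 3.58.1, other scalings and filters, exon length offsets and leaving out each library, and DESeq2 above a mean CPM of 10 was added after the data were seen. Intervals are 95% from the edgeR fit. Exon lengths and positions came from GENCODE M21, which matched 53447 of 54021 symbols. The scripts were tested on simulated data.

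The members and lists were chosen with earlier results of these data known. The wider genes named were the ligands, the co-receptors Cdon, Boc and Gas1, the 8 largest changes, the defining marker genes and the 5 nearest profiles to Gli1 and Hhip. Genes counted in groups of 5 or fewer (Kif7, Evc2) were named after values were seen. A further gene that the rule names is not reported here. The ratios and the motifs of the response element and GC box were chosen after values were seen. A check for duplicate libraries found none, since the replicates of each group differed by more than counting noise.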

Additional observations from a re-analysis of the deposited data

How the results depend on the processing

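No paired analysis was made because the sources used here record no pairing of INK128 with control libraries. The number of genes called was 0 in the edgeR test and moved to 4193 with DESeq2, 749 with a mean CPM above 10, 3105 with at least 1 count, 3367 with DESeq2 above a mean CPM of 10, and between 0 and 7926 with 1 library left out. Hedgehog members called moved from 0 to 2 with DESeq2 under either filter and with at least 1 count, and to between 0 and 3 with 1 library left out. Of the wider list, 4 were called with DESeq2 under either filter, 2 with a mean CPM above 10 or at least 1 count, and 0 to 17 with 1 library left out. The cause was not tested. limma voom, relative log expression factors, library totals and length offsets left all 3 counts at 0. Ihh turned to -0.06 with library totals and -0.08 with length offsets (-0.21 to 0.55 with 1 library left out), Sufu to 0.24 with length offsets (-0.32 to 0.26) and Gli3 to 0.37 (-0.36 to 0.39). Gli1, Gli2, Hhip, Ptch1 and Smo kept their direction in all 12 alternatives. With 2 libraries per group, an edgeR p rests on few degrees of freedom.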

Other observations

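The genes closest to Gli1 in profile, by Euclidean distance of log2 CPM centred per gene over the 4 libraries, were Gm26771 (0.09), Tmem160 (0.12), Snord47 (0.12), Lockd (0.15) and Tmsb10 (0.16). A pseudocount of 0.5 was added to the CPM. Gm26771 (0.347 to 3.13 CPM) and Snord47 (0.608 to 4.44 CPM) had levels near it, so their distances depend in part on it. Tmsb10, thymosin beta 10, had 447 and 663 CPM in the INK128 libraries and 164 and 263 CPM in controls, the same order of libraries as Gli1. The genes closest to Hhip were Sox11 (0.04), Gm16054 (0.18), Syt1 (0.27), Atp5k (0.28) and Srpx2 (0.30). Sox11, a transcription factor of progenitor cells, had 15.5 and 15 CPM with INK128 and 1.69 and 7.29 CPM in controls. Gli1 and Hhip themselves lay 1.06 apart. The neighbours were picked as the closest genes, so every other gene lies further by construction. A likeness over 4 libraries is a description of these libraries.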
